A study of Mus musculus with 24 samples.

Results

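The genes that move calcium in and out of the sarcoplasmic reticulum of muscle were followed in heart, skeletal muscle, brain and liver of Rap1 knockin (KI) and wild-type (WT) mice. The 10 genes were chosen by symbol: the pumps Atp2a1 and Atp2a2, the pump inhibitors Pln and Sln, the release channels Ryr1 and Ryr2, the calcium buffers Casq1 and Casq2, and the L-type channel pores Cacna1s and Cacna1c. All 10 were found among the 21368 genes that had a named probe on the array. Atp2a2, Cacna1s and Cacna1c had several probes each, and each was represented by its probe of highest mean level.

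Expression was measured on 1-colour arrays in 6 female mice. The KI mice A, B and C carried a point mutation of Rap1 (gene symbol Terf2ip), made by CRISPR/Cas9 and described by the study as homozygous, in which RAP1 no longer binds its telomeric partner TRF2. The WT mice D, E and F carried the normal allele, and the line, labelled C57BL6, had been backcrossed to C57BL/6N according to the methods of the study. Mice C and F were 14 months old and the other 4 mice were 15 months old, without a treatment. Each mouse gave all 4 tissues, so that 24 arrays formed 8 groups of 3. The labels gave neither the muscle nor the part of the heart that was sampled.

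In a resting muscle cell, calcium is stored in the sarcoplasmic reticulum, where calsequestrin (Casq1, Casq2) binds it. On excitation the L-type channel in the surface membrane opens the ryanodine receptor (Ryr1, Ryr2), in skeletal muscle by direct contact and in the heart through the calcium that enters. The SERCA pumps (Atp2a1, Atp2a2) return the calcium to the store and are held back by phospholamban (Pln) and sarcolipin (Sln). Fast skeletal fibres mainly use Atp2a1, Ryr1, Casq1 and Cacna1s, and the heart Atp2a2, Ryr2, Casq2 and Cacna1c.

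Levels are given as log2 of the processed spot signal minus the 75th percentile of the same array, so that 0 is the level of that percentile and 1 is a doubling. Probes differ in brightness, so a level was compared between samples but not between genes. A probe is called detected where the scanner software found it well above background. These are bulk samples, in which fewer cells of a type and less RNA per cell cannot be told apart.

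The 75th percentile lay between signals of 312.5 and 2519.4, and 49.4% to 68.4% of probes were detected per array. Terf2ip, the mutated gene, differed between KI and WT by -0.33 in liver, -0.15 in heart, -0.13 in brain and -0.07 in muscle (log2; adjusted p of 0.515 to 1.00, limma). A dimmer Terf2ip probe had KI and WT means of -2.52 and -2.60 in liver and of -2.31 and -2.22 in heart. Its means in the same order were -1.42 and -1.48 in brain and -1.76 and -1.83 in muscle. By this probe KI was lower than WT in heart only. These are RNA levels, and whether either probe overlaps the mutated site was not checked. The library of liver mouse C (KI) stood apart: 6 of 7 fast skeletal fibre markers were higher there than in the other 5 livers, with a list mean of 0.96 against -5.78 to -4.87. Brain mouse C was higher than all other brains in 7 of 7 hepatocyte markers. In muscle mouse B (KI), 4 of 4 mammary epithelium markers were higher than in any other muscle.

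The paralogue pairs separated heart from skeletal muscle. Of the 10 genes, 9 passed the test of heart against muscle in WT mice, 5 of them higher in heart and 4 lower. Of all 14879 genes tested, 29.4% were called higher in heart and 28.9% lower. The median difference was -0.19 over the 10 genes and 0.00 over all genes tested. Ryr2 passed the filter through heart alone, where it is high. The same 9 genes passed in the KI mice, with the same directions, where the background was 22.5% higher and 27% lower. The KI and WT fits share no array.

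**Figure D1:**
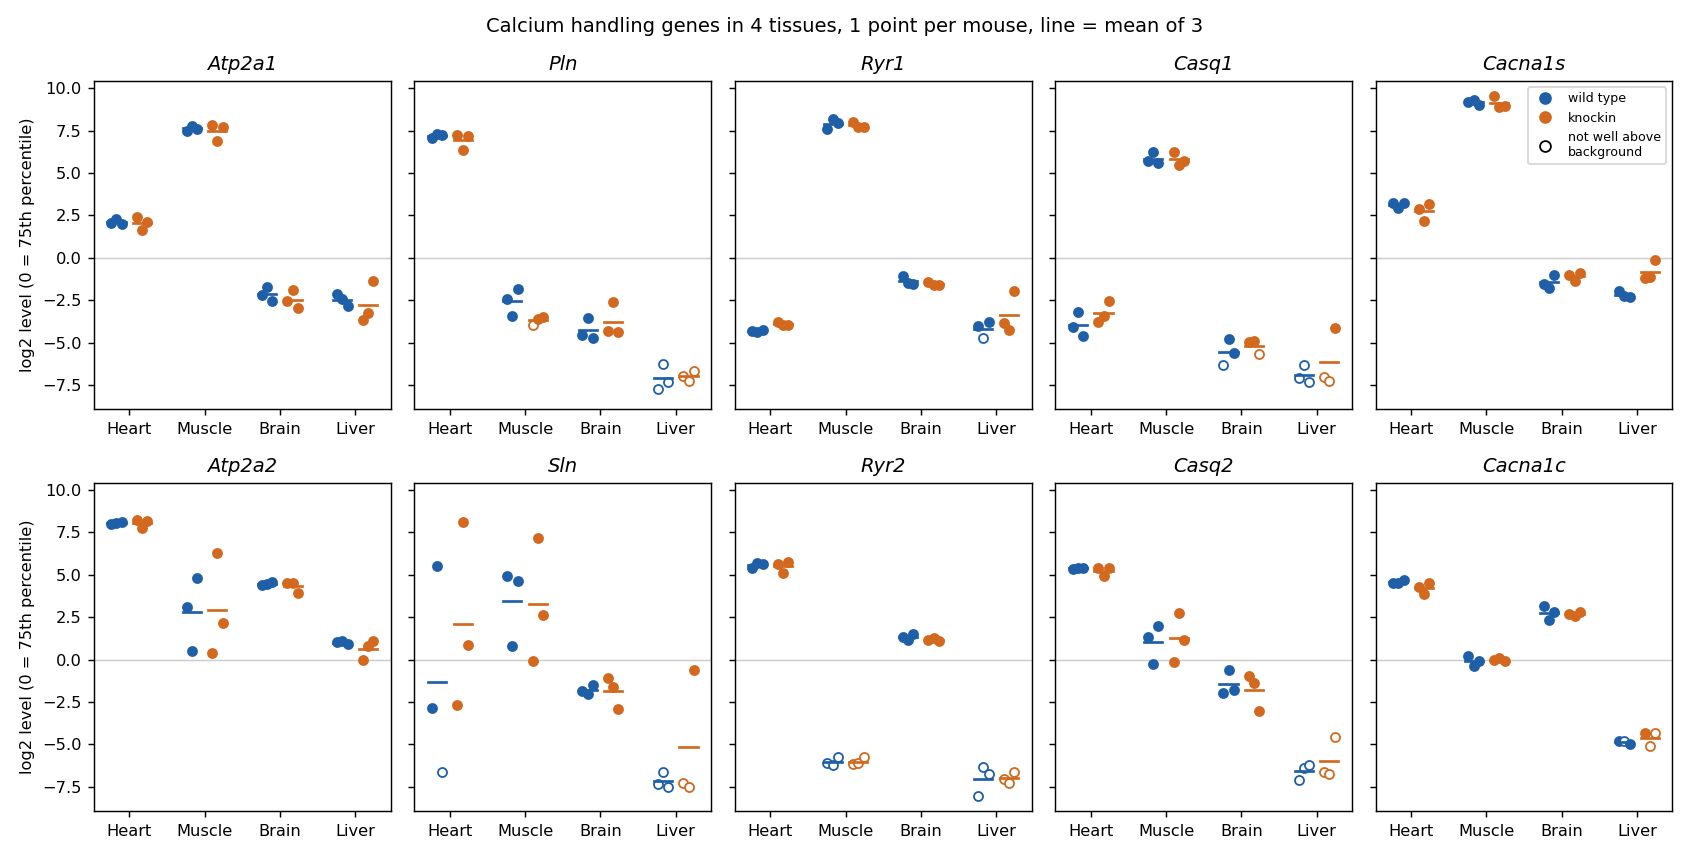
Log2 level of each gene (y axis, 0 = 75th percentile of the array) in 4 tissues (x axis) for WT (blue) and KI (orange) mice, 1 point per mouse, with lines at the mean of 3. Hollow points were not well above background. Sln in heart runs from -6.62 to 8.09, whereas Ryr1 is tight within each of heart and muscle and Ryr2 within heart. Ryr2 was not detected in muscle.

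Among the release channels, Ryr2 had levels of 5.38, 5.70 and 5.64 in the hearts of WT mice D, E and F and of 5.63, 5.07 and 5.77 in those of KI mice A, B and C. It was not detected in any of the 6 muscles or the 6 livers. Its level in WT heart was at least 1198-fold that in WT muscle and in KI heart at least 886-fold that in KI muscle. The fitted WT difference, which uses the undetected muscle values, had an adjusted p of 4.99e-09 (limma), which does not test the fold given. In brain it was detected on all 6 arrays, between 1.07 and 1.52. Heart stood above brain by 4.23 (SE 0.36, adjusted p = 1.43e-06).

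Ryr1, the skeletal release channel, was reversed. Its levels were 7.62, 8.16 and 7.97 in WT muscle and 8.02, 7.72 and 7.69 in KI muscle, and between -4.35 and -3.80 in the 6 hearts. Heart minus muscle was -12.21 (SE 0.25, adjusted p = 5.16e-10) in WT and -11.72 (SE 0.46, adjusted p = 5.98e-08) in KI mice. Brain, between -1.60 and -1.04, lay above heart, since WT heart minus brain was -2.95 (adjusted p = 1.32e-06). Heart and liver did not differ beyond their spread (WT difference -0.12, SE 0.25, adjusted p = 0.678).

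The calcium buffers repeated this opposition. Casq1, the skeletal calsequestrin, lay at 5.68, 6.26 and 5.61 in WT muscle and 6.24, 5.49 and 5.69 in KI muscle, and between -4.59 and -2.55 in heart. The difference was -9.79 (SE 0.45, adjusted p = 7.92e-08) in WT and -9.05 (SE 0.70, adjusted p = 5.55e-06) in KI mice. Casq1 was detected in 4 of 6 brains and in 1 of 6 livers, that of mouse C.

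Casq2, the cardiac form, was nearly constant in heart, at 5.36, 5.41 and 5.38 in WT and 5.40, 4.90 and 5.42 in KI mice. In muscle it ranged from -0.24 to 2.76, and all 6 muscles lay below all 6 hearts. Heart exceeded muscle by 4.36 (SE 0.52, adjusted p = 5.89e-05) in WT and by 3.99 (SE 0.81, adjusted p = 0.00255) in KI mice. In brain it lay between -3.06 and -0.64, below WT muscle by 2.48 (adjusted p = 0.00129), a call lost with the slide as a block (2.24, adjusted p = 0.101). It was below detection in all 6 livers.

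The windows upstream of these buffers are shown because the pair went in opposite directions between heart and muscle and, as described further on, from muscle to muscle. Each runs over 250 bases up to the base before the start of transcription, from RefSeq on build GRCm38.p6, with searched motifs in capitals. Casq1 is shown from chr1:172219896-172220145 (minus strand) and Casq2 from chr3:102086165-102086414 (plus strand).
Casq1: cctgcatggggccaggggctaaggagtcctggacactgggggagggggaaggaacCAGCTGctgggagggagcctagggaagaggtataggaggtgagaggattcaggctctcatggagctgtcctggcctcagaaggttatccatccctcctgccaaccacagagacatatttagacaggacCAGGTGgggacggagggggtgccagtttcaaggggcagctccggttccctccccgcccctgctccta
Casq2: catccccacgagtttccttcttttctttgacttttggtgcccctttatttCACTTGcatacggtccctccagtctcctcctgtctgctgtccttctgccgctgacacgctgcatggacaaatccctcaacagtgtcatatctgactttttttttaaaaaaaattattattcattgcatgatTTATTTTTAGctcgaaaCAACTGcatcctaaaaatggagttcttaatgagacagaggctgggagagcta
The motifs searched on both strands were the E-box CANNTG, bound by myogenic factors, the MEF2 site and the CArG box. The Casq1 window held 2 E-boxes, which end 190 and 62 bases before the start. The Casq2 window held 2 E-boxes, which end 195 and 47 bases before the start, and 1 MEF2 match, which lies 69 to 60 bases before it and overlaps no E-box. Over 32851 such windows, 66.2% held an E-box, 2.92% a MEF2 match and 1.47% a CArG box. Windows were on hand for 8 of the 10 genes, with 10 windows in all. An E-box stood in 9 of these windows, a MEF2 match in that of Casq2 only, and a CArG box in 0. These are matches of letters, and binding was not measured.

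Of the pumps, Atp2a1 (SERCA1) lay at 7.49, 7.80 and 7.62 in WT muscle and at 7.82, 6.88 and 7.70 in KI muscle. In heart it lay between 1.63 and 2.43, so that no heart reached any muscle. Heart was lower by 5.51 (SE 0.22, adjusted p = 3.22e-08) in WT mice, or 45.5-fold, with a KI difference of -5.41 (SE 0.54, adjusted p = 3.06e-05). Heart was still above brain by 4.26 (adjusted p = 3.88e-08), whereas brain and liver did not differ beyond their spread (0.33, SE 0.22, adjusted p = 0.188).

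Atp2a2 (SERCA2), the pump of heart, slow fibres and most other cells, was detected on all 24 arrays. Its heart levels were 7.99, 8.05 and 8.08 in WT and 8.24, 7.76 and 8.16 in KI mice. In muscle it was 3.08, 0.49 and 4.82 in WT mice D, E and F and 0.41, 6.27 and 2.15 in KI mice A, B and C, a range wider than that between some tissues. Heart minus muscle was 5.25 (SE 0.80, adjusted p = 0.000287) in WT and 5.11 (SE 1.12, adjusted p = 0.00398) in KI mice. The KI call was lost with the slide as a block (5.22, adjusted p = 0.0716).

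In brain Atp2a2 lay between 3.95 and 4.58 and in liver between -0.04 and 1.12. WT muscle passed against neither: muscle minus brain was -1.68 (SE 0.80, adjusted p = 0.0756) and muscle minus liver 1.79 (SE 0.80, adjusted p = 0.0601). Muscle minus brain was called under quantile normalization (-2.42, adjusted p = 0.0141), under normexp (-1.82, adjusted p = 0.0349) and without the muscle of mouse F (-2.69, adjusted p = 0.00176). Muscle minus liver was called without the muscle of mouse E (2.94, adjusted p = 8.29e-05). The other Atp2a2 probe put muscle minus liver at -0.77, in the opposite direction, without a call.

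Pln, the inhibitor known from heart, was at 7.05, 7.31 and 7.23 in WT heart and 7.26, 6.38 and 7.18 in KI heart. In muscle it lay between -3.94 and -1.85, with 5 of 6 arrays detected. The difference was 9.77 (SE 0.47, adjusted p = 9.46e-08) in WT and 10.62 (SE 0.44, adjusted p = 7.74e-08) in KI mice. In brain it lay between -4.70 and -2.58, below WT muscle by 1.70 (adjusted p = 0.00663), a call lost with the slide as a block (adjusted p = 0.214). It was below detection in the 6 livers, and WT heart was at least 5378-fold above WT liver. The adjusted p of 9.41e-10 (limma) belongs to the fitted difference with the undetected liver values.

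Sln, the small inhibitor of atria and of some skeletal fibres, was the exception among the 10. Its heart levels were -2.85, 5.54 and -6.62 in WT mice D, E and F, the last not detected, and -2.70, 8.09 and 0.88 in KI mice A, B and C. In muscle they were 4.91, 0.77 and 4.60 in WT and -0.09, 7.19 and 2.65 in KI mice. In brain it was detected on all 6 arrays, between -2.89 and -1.08, and in liver on 1, that of mouse C. Heart was above muscle in 2 of 6 mice, B and E, and below it in the other 4. Heart minus muscle did not pass in WT (-4.74, SE 2.41, adjusted p = 0.116) or KI mice (-1.16, SE 2.79, adjusted p = 0.755). Without the heart of mouse E the WT difference was -8.17 (adjusted p = 0.000806). With the slide as a block it was -10.05 (adjusted p = 0.0223), a value set by the heart of mouse F, the 1 WT heart that shared a slide with the muscles, in which Sln was not detected.

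Both L-type channel pores were detected in heart and muscle. Cacna1s, the skeletal voltage sensor, lay at 9.19, 9.32 and 9.03 in WT muscle and 9.54, 8.87 and 8.97 in KI muscle, against 2.19 to 3.23 in the 6 hearts. Heart minus muscle was -6.05 (SE 0.20, adjusted p = 8.37e-09) in WT and -6.38 (SE 0.34, adjusted p = 4.55e-07) in KI mice. Brain and liver were lower still, and WT heart exceeded brain by 4.56 (adjusted p = 1.18e-08). Brain exceeded liver by 0.75 (adjusted p = 0.00526), a call lost with the other Cacna1s probe (0.54, adjusted p = 0.229) and with the slide as a block (0.67, adjusted p = 0.0853).

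Cacna1c, the pore used in heart, neurons and smooth muscle, lay at 4.54, 4.52 and 4.71 in WT heart and 4.27, 3.85 and 4.52 in KI heart, and between -0.39 and 0.21 in the 6 muscles. The difference was 4.67 (SE 0.21, adjusted p = 6.81e-08) in WT and 4.24 (SE 0.23, adjusted p = 6.18e-07) in KI mice. Brain, at 2.32 to 3.14, stood between them: WT heart minus brain was 1.83 (adjusted p = 1.70e-05) and muscle minus brain -2.85 (adjusted p = 4.62e-07). In liver it lay between -5.11 and -4.35 and was detected on 3 of 6 arrays. A dimmer Cacna1c probe gave 2.40 for WT heart minus muscle, without a call (adjusted p = 0.149). With the mean of both probes, muscle minus brain was -0.95 and lost its call (adjusted p = 0.192).

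**Figure D2:**
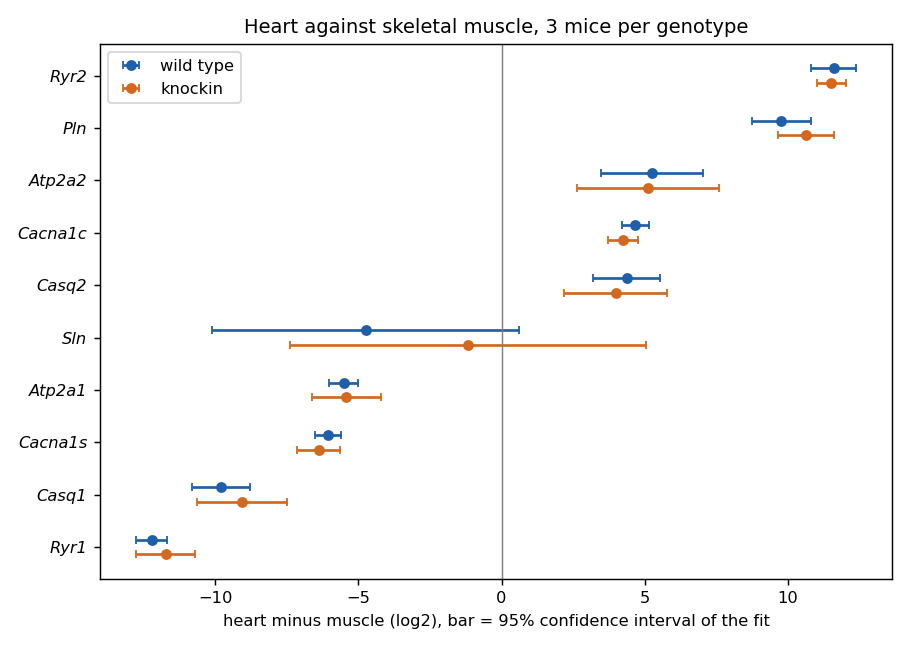
Heart minus muscle (x axis, log2) for each gene, from separate fits of WT (blue) and KI (orange) mice, 3 mice each, with 95% confidence intervals. Ryr2, Pln, Atp2a2, Cacna1c and Casq2 lie right of 0, Ryr1, Casq1, Cacna1s and Atp2a1 left of it, and both Sln intervals include 0. Ryr2 was not detected in muscle, so its points are fitted values and not measured differences.

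Within single mice the direction held for all 9 called genes in 6 of 6 mice. The narrowest was Atp2a1, with -5.60 to -5.25, and the widest was Atp2a2, with 1.49 to 7.83. Most hearts and muscles were on different slides, and only the hearts of C and F shared a slide with the muscles. On that slide the WT values were -12.14 for Ryr1, -10.44 for Casq1, 4.36 for Casq2, -5.61 for Atp2a1 and 5.29 for Atp2a2. Pln gave 9.80, Cacna1s -5.96 and Cacna1c 4.80. Ryr2, not detected in muscle, was at least 1256-fold higher in heart there.

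In the other tissue comparisons of the WT mice, 8 of the 10 genes were called higher in heart than in brain (background 41.7%) and 1, Ryr1, lower (33.7%). In muscle against brain, 6 were higher (42.8%) and 2, Ryr2 and Cacna1c, lower (35.3%). Ryr2, not detected in muscle, passed that filter through brain alone and could not have been higher in muscle. Of 9 genes tested against liver, 8 were higher in heart (39.6%) and 0 lower (34.7%), and 8 were higher in muscle (41.3%) and 0 lower (37.2%). In brain against liver, 7 of 9 were higher (37.9%) and 0 lower (42.3%). Pln lost this call under normexp (0.12, adjusted p = 0.665) and Atp2a2 with its other probe (0.29, adjusted p = 0.730). In each comparison with liver, 4 of the 9 genes were not detected in WT liver. They passed the filter through the other tissue, where they were detected, and could not have been lower, so these counts are a description. The 4 came from Pln, Casq1, Casq2, Ryr2 and Sln. The median over the genes tested was 3.90 for heart minus brain against 0.17 over all genes. All livers were on slide 1, brains on slides 1 and 2, hearts on slides 2 and 3 and all muscles on slide 3. Muscle thus shared no slide with brain or liver, and heart shared none with liver. In these comparisons tissue and slide cannot be told apart directly, and the fit with the slide as a block links them only through other tissues.

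Genes of the same machinery outside the 10 were taken from a list of 49, of which 45 had a probe and 44 were tested in WT heart against muscle. There 11 were higher in heart (background 29.4%) and 27 lower (28.9%), with a median of -1.03 against 0.00 over all genes. In KI mice 7 were higher (22.5%) and 25 lower (27%), and all 32 of these had been called in WT mice with the same direction. The list holds many proteins of the skeletal triad. The counts of its groups that follow are read against the same WT background of 29.4% and 28.9%. Some genes of the list passed the filter through 1 tissue alone, so its counts are a description.

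Among the proteins of the release unit and the junction that holds it, 3 of 15 were higher in WT heart and 12 lower. Asph, whose several products include junctin, was higher by 2.88 (SE 0.17, adjusted p = 3.60e-07), and S100a1, a calcium sensor that binds the ryanodine receptor, by 2.07 (SE 0.20, adjusted p = 1.19e-05). Jsrp1, a skeletal junction protein, gave -8.83 (SE 0.17, adjusted p = 4.50e-10) and Stac3, needed for the skeletal L-type channel, -7.78 (SE 0.26, adjusted p = 8.59e-09). Both skeletal partners lay on the same side as Ryr1 and Cacna1s.

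Of 7 other L-type channel subunits, 2 were higher in heart and 4 lower. Cacnb2, the cardiac beta subunit, was not detected in muscle, so it passed the filter through heart alone and could not have been lower. Its level in WT heart was at least 59.7-fold that in WT muscle. The adjusted p of 8.86e-09 (limma) belongs to its fitted difference with the undetected muscle values. Cacnb3 was higher by 1.02 (adjusted p = 0.00466). The skeletal subunits Cacng1 and Cacnb1 gave -9.02 (adjusted p = 2.02e-07) and -5.65 (adjusted p = 2.58e-09). Cacng1 was detected in 1 of the 3 WT hearts and passed the filter through muscle alone.

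Of 7 surface extrusion genes, 2 were higher and 2 lower. Slc8a1, the cardiac sodium-calcium exchanger, was higher by 3.54 (SE 0.44, adjusted p = 7.38e-05) and Slc8a2 by 0.83 (adjusted p = 0.00450), and Atp2b3 and Atp2b1, plasma membrane calcium pumps, gave -5.94 (adjusted p = 0.00125) and -0.62 (adjusted p = 0.0264). Atp2b3 was detected in 2 of the 3 WT hearts and passed the filter through muscle alone. Of 8 IP3 receptor and store-operated entry genes, 3 were higher and 4 lower in WT mice, and 0 were higher and 3 lower in KI mice. Itpr3 gave 0.61 and Orai2 0.58 in WT mice, without a call in KI mice (adjusted p = 0.0942 and 0.407, limma). Stim1, the store calcium sensor, gave -3.97 (adjusted p = 8.37e-08) and Stim2 -1.78 (adjusted p = 0.000482).

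Of the 5 calmodulin kinase and buffer genes, Camk2d was the 1 higher in WT heart, by 0.81 (adjusted p = 0.000626), and 4 were lower. In KI mice Camk2d was not called (0.55, adjusted p = 0.0774, limma). Pvalb, the cytosolic calcium buffer of fast fibres, gave -13.29 (SE 0.28, adjusted p = 5.70e-10) and Camk2b -4.15 (adjusted p = 4.00e-05). Of the other pump genes, Mrln, a skeletal pump inhibitor, gave -6.16 (adjusted p = 2.15e-08), and Atp2a3 gave 0.55 without a call (adjusted p = 0.132).

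**Figure D3:**
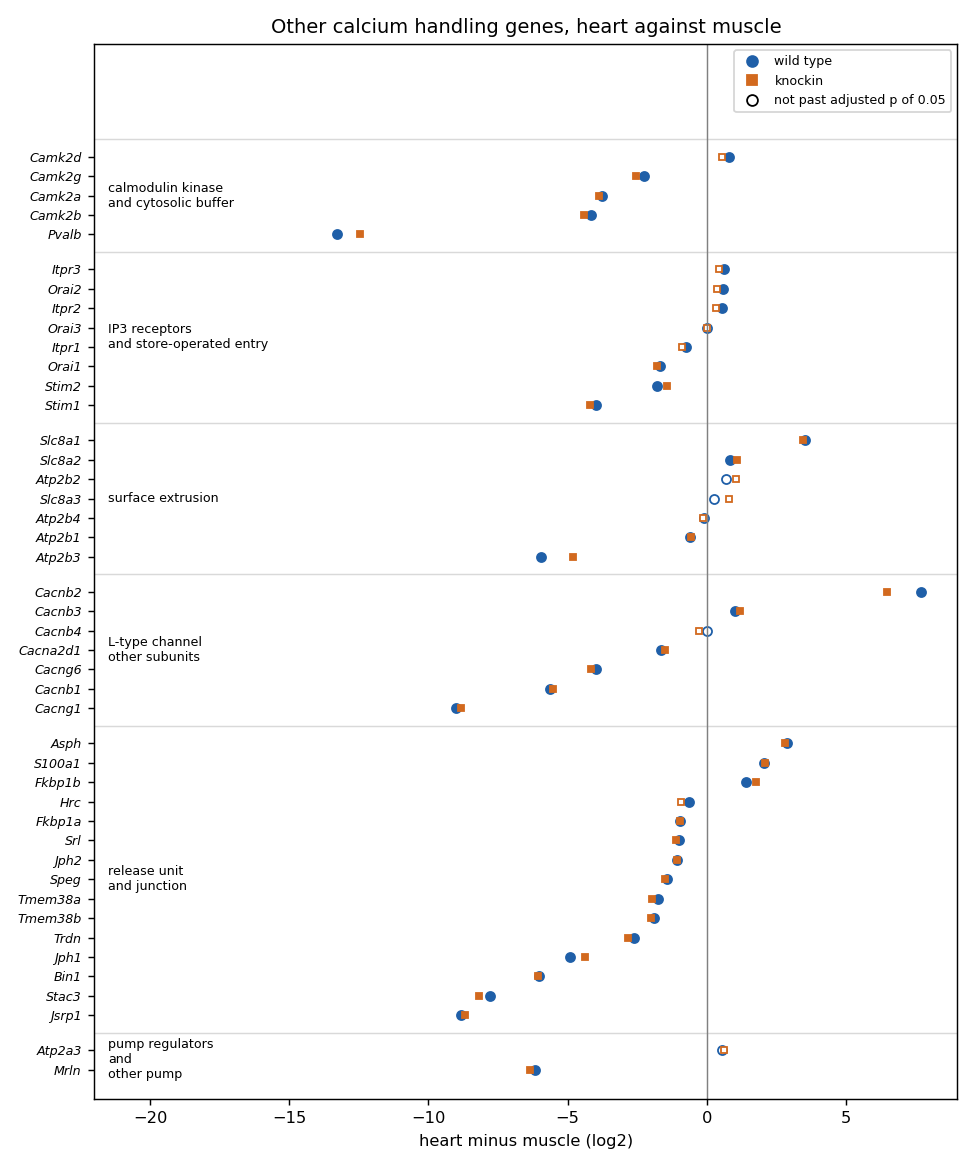
Heart minus muscle (x axis, log2) for 44 other calcium handling genes by group, WT as blue circles and KI as orange squares, hollow where the adjusted p was not under 0.05. Pvalb lies farthest left, at -13.29 in WT mice. Cacnb2 was not detected in muscle, so its points are fitted values and not measured differences. In all, 32 genes were called with the same direction in both genotypes.

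Sln, Atp2a2 and Casq2 varied widely between mice of the same tissue and genotype. The SD of Sln in heart, pooled within genotypes, was 5.87, the largest of the 14931 genes tested there, against a median of 0.22. In muscle Sln (SD 3.07) ranked 16, Atp2a2 (2.63) 20 and Casq2 (1.31) 164 from the top of 13516 genes, whose median SD was 0.28. Ryr1 in heart, with 0.08, ranked 14128 of 14931. In heart Atp2a2 had an SD of 0.19 and Casq2 of 0.21, both under the median there.

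In muscle these levels moved with the slow-fibre markers Myh7, Tnnt1, Tnni1, Myl2, Myl3, Tpm3 and Ankrd2. Their mean level was 1.70, 7.98 and 4.87 in KI mice A, B and C and 5.83, 2.18 and 6.79 in WT mice D, E and F. Myh7, the slow myosin heavy chain, alone ran from 1.75 in mouse A to 9.60 in mouse B. Mouse B was also the one with the mammary markers.

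Over the 6 mice, Atp2a2 in muscle followed the slow-fibre mean with Pearson's r = 0.972 (exact permutation p = 0.00417, adjusted p = 0.0208) and Spearman's rho = 1.00 (exact permutation p = 0.00278, adjusted p = 0.0556). Casq2 had r = 0.988 (exact permutation p = 0.00278, adjusted p = 0.0208) and rho = 0.943 (exact permutation p = 0.0167, adjusted p = 0.0667). Sln had r = 0.976 (exact permutation p = 0.00278, adjusted p = 0.0208) with the same rho and p-values for rho as Casq2. The tests were two-sided, and p-values were adjusted over 20 relations, 10 genes against 1 list in each of muscle and heart.

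Casq1 went the other way, with r = -0.971 (exact permutation p = 0.00417, adjusted p = 0.0208) and rho = -0.943 (exact permutation p = 0.0167, adjusted p = 0.0667), although its 6 values lay only between 5.49 and 6.26. Atp2a1 had r = -0.805 (exact permutation p = 0.0153, adjusted p = 0.0509) and rho = -0.943 (exact permutation p = 0.0167, adjusted p = 0.0667), and did not pass after adjustment. Without the 2 mice farthest from the median of the list, A and E, r was 0.994 for Atp2a2, 0.978 for Casq2, 0.933 for Sln and -0.945 for Casq1. After each genotype's mean was removed, r was 0.973, 0.996, 0.976 and -0.975 in the same order. All 6 muscles were on 1 slide.

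In heart Sln was high where the atrial markers Myl7, Myl4, Nppa and Bmp10 were high. The mean of these 4 genes was -0.41, 6.71 and 0.81 in KI mice A, B and C and -0.21, 3.87 and 0.02 in WT mice D, E and F. Myl7, the atrial myosin light chain, was 7.44 in mouse B and 4.27 in mouse E, against -3.26 to 0.18 in the other 4 mice. In mouse B all 4 atrial markers, 5 of 7 fast skeletal markers and 4 of 4 adipocyte markers were higher than in any other heart.

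Sln followed the atrial mean with r = 0.920 (exact permutation p = 0.00833, adjusted p = 0.0333) and rho = 0.771 (exact permutation p = 0.103, adjusted p = 0.294). Without the mice B and E, r was 0.585 over 4 mice, so the relation rests on those mice. The hearts of A, B, D and E shared 1 slide and those of C and F another, and with fewer than 6 mice on each no coefficient was computed within a slide. None of the other 9 genes passed against the atrial mean after adjustment (adjusted p of Pearson's r 0.130 to 0.912). The part of sampled region or fibre type in these levels was not tested.

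**Figure D4:**
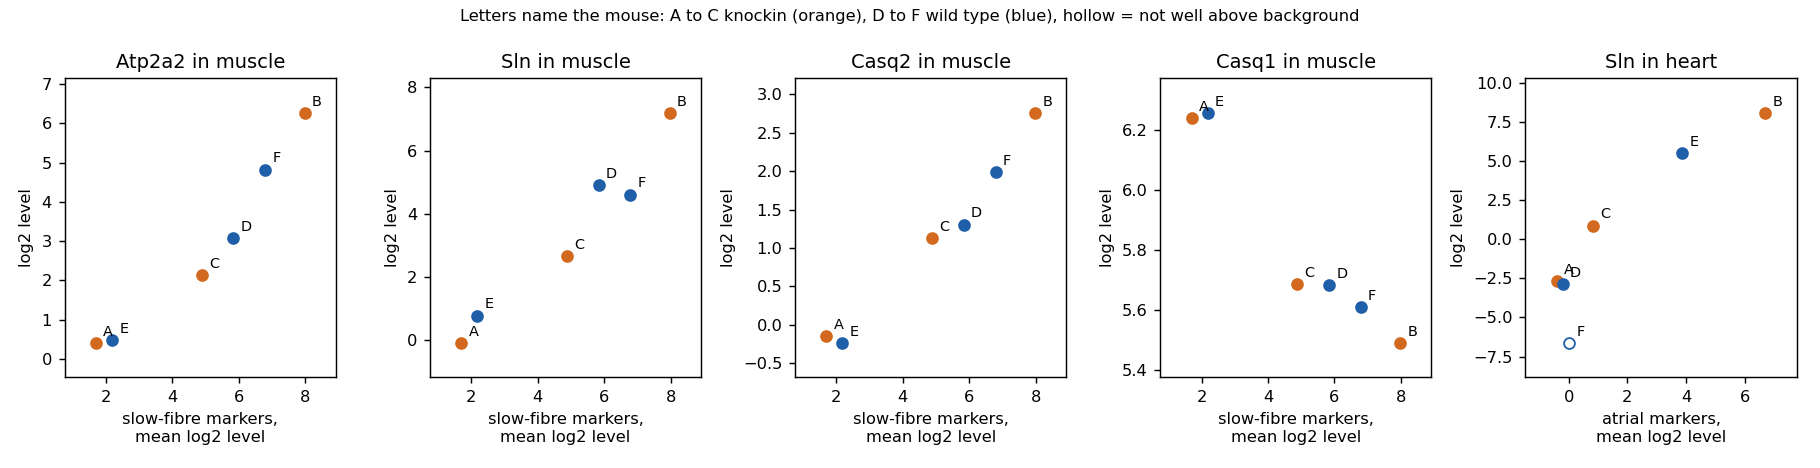
Log2 level of Atp2a2, Sln, Casq2 and Casq1 in muscle against the mean log2 level of 7 slow-fibre markers (x axis, 4 left panels) and of Sln in heart against the mean of 4 atrial markers (right panel). Each point is 1 mouse, and the hollow point was not well above background. Mouse B is at the high end of each x axis and A at the low end, in muscle and in heart.

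The nearest patterns among 17176 genes, by Pearson's r over the 24 array levels, are a description in which tissue gives most of the points' spread. Ryr1 was closest to Jsrp1 (0.996), Mybpc1 (0.992) and Kctd15 (0.986), and Ryr2 to Chrm2 (0.996), the cardiac muscarinic receptor. Atp2a1 was closest to Tmod4 (0.992), Casq1 to Tmem52 (0.990), Cacna1s to Smtnl2 (0.993), Cacna1c to Slc4a3 (0.993) and Casq2 to Mgp (0.984). Pln was closest to 4631405J19Rik (0.987), Atp2a2 to Nckap5 (0.970) and Sln to the atrial light chain Myl4, at only 0.835.

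After the means of the 8 groups were removed, the deviations of Atp2a2 were closest to those of Tnnc1 (0.980), the troponin C of slow and cardiac muscle, Myh7b (0.967) and Slc43a2 (0.964). Those of Casq2 were closest to Slc43a2 (0.858) as well, and those of Casq1 to Mybpc2 (0.853), the fast myosin-binding protein. Those of Sln were closest to Prdm6 (0.867), and those of Cacna1s to Tmem38a (0.869), a counter-ion channel of the sarcoplasmic reticulum. Pooled within genotypes, the SD of Atp2a2 was 2.63 in muscle, 0.19 in heart, 0.25 in brain and 0.43 in liver. Muscle thus gave most of the spread in the deviations of Atp2a2.

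One question of the study was how the Rap1 mutation alters expression in each tissue. By its own criteria, the paper reported many altered transcripts in the liver of middle-aged KI females and few in their other tissues. For the 10 genes here, no difference between KI and WT mice passed the test in any tissue. In limma fits of 3 against 3, 0% of genes in each tissue had an adjusted p under 0.05. At an unadjusted p under 0.05 there were 115 genes in muscle (0.85% of those tested), 127 in brain (0.79%), 245 in heart (1.64%) and 1653 in liver (11.7%). Of the 10 genes, 10 were tested in heart, 9 each in brain and muscle and 4 in liver. The median KI minus WT difference over these was -0.08 in heart, -0.14 in brain, -0.05 in muscle and 0.27 in liver, against -0.05, -0.03, 0.02 and 0.04 over all genes tested.

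In heart only Ryr1 had groups that did not overlap, 1 of 10 genes, where the background was 5.04%. Its KI levels were -3.80, -3.94 and -3.98 and its WT levels -4.31, -4.35 and -4.22, a low signal in both. The KI minus WT difference was 0.39 (SE 0.12, adjusted p = 0.971, limma). Cacna1c gave -0.37 (SE 0.19, adjusted p = 0.971) with overlapping groups, and -0.19 without mouse B. Of the others, Sln was the least well determined, at 3.40 with a 95% confidence interval from -5.31 to 12.12, and Atp2a2 lay at 0.01 with an interval from -0.37 to 0.39.

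In muscle only Pln, 1 of 9 genes, did not overlap (background 3.54%). Its KI levels were -3.94, -3.58 and -3.51 and its WT levels -2.42, -3.43 and -1.85, and the KI array with the lowest level was not above background. The difference was -1.11 (SE 0.39, adjusted p = 1.00, limma). Atp2a1 gave -0.17 (SE 0.27, adjusted p = 1.00) and changed sign, to 0.13, without mouse B. The intervals for Atp2a2 (-3.77 to 4.06) and Sln (-4.75 to 4.39) were the widest of the 9.

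In brain 0 of 9 genes had groups apart (background 2.86%). Cacna1s gave 0.36 (SE 0.24, adjusted p = 1.00, limma) and Ryr2 -0.18 (SE 0.14, adjusted p = 1.00), the pair with the smallest p there. Leaving out 1 array moved Cacna1s between 0.18 (without mouse E) and 0.58 (without F) and Ryr2 between -0.26 (without E) and -0.09 (without F).

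In liver, where 19.7% of all genes had groups that did not overlap, this held for 1 of 4, Cacna1s, by the probe representing each gene. Its KI levels were -1.17, -1.11 and -0.13 and its WT levels -1.97, -2.26 and -2.32. The difference was 1.38 (SE 0.29, adjusted p = 0.358, limma). The highest value was that of mouse C, in whose liver all 4 genes tested were above the other 5 livers, Atp2a2 by under 0.05, as were 21.2% of all genes tested. Sln, not tested in liver, was detected there alone, at -0.61. Without mouse C the difference was 1.05 (adjusted p = 0.527), and the groups did not overlap either. Ryr1 gave 0.83 (SE 0.60, adjusted p = 0.567), and 0.13 without mouse C. Without mouse C the groups also lay apart for Atp2a1 (-0.97, adjusted p = 0.527, against -0.28 with it) and Atp2a2 (-0.63, adjusted p = 0.535), or 3 of 4 genes, where 30% of all genes tested had groups apart. The other Atp2a2 probe had groups apart with mouse C included, at -1.99 to -1.48 in KI and -1.16 to -0.60 in WT livers. So did the other Cacna1s probe, at -4.23 to -3.40 in KI and -6.25 to -4.41 in WT livers. It was detected in 2 of the 3 WT livers.

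**Figure D5:**
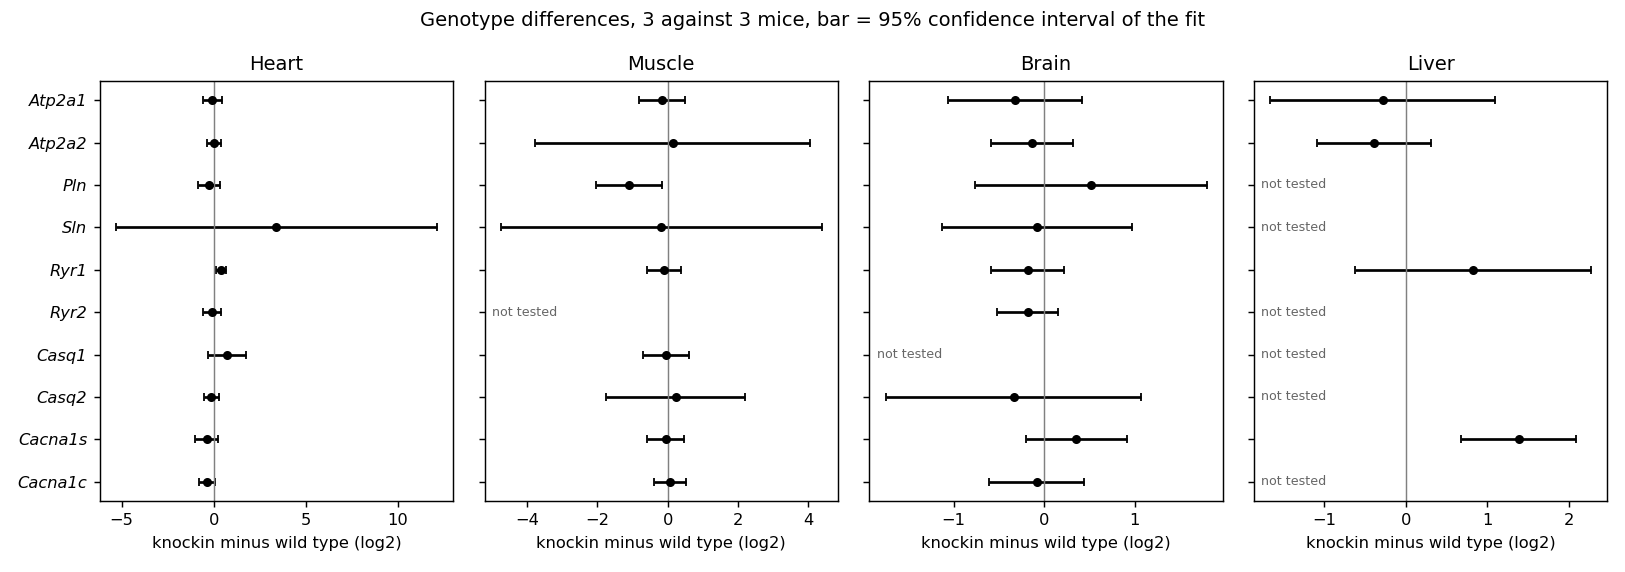
KI minus WT difference (x axis, log2, scaled separately for each tissue) of each gene in 4 tissues, 3 against 3 mice, with 95% confidence intervals of the fit. Genes not well above background in all mice of either genotype were not tested. Intervals of Cacna1s in liver, Ryr1 in heart and Pln in muscle lie off 0 before adjustment, and none of these 3 genes passed after it.

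Whether the genotype effect differed between tissues was asked with a moderated F-test over all 24 arrays. It called 0% of 17299 genes, with 322 genes at an unadjusted p under 0.05. Among the 10 genes Cacna1s had the largest F, 7.25 (adjusted p = 1.00, limma), and for the other 9 F lay between 0.05 and 2.14. Of the 44, 43, 43 and 32 other calcium handling genes tested in brain, heart, muscle and liver, 0 passed between genotypes, and 2, 3, 1 and 5 of them had groups that did not overlap, against backgrounds of 2.86%, 5.04%, 3.54% and 19.7%.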

How the data were processed

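Total RNA of 24 tissue samples was labelled and hybridised to 1-colour Agilent mouse arrays, 1 per sample. The authors extracted spot intensities with Feature Extraction 12.0.3.1, per the file headers. From the deposited intensities the processed signal was taken, which is corrected for background but not normalized between arrays. A table of scores for 33912 features, deposited by the authors, was found to hold z-scores of the log signal within each array and served as an alternative only. Control spots and outlier spots were left out and spots of a probe averaged, which gave 55681 probes, of which 50.9% received a symbol through RefSeq accessions (GRCm38.p6, names only). No spot was saturated.

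Values were log2 signal minus the 75th percentile of the array. Genes were tested where every array of at least 1 of the groups compared was well above background, with limma 3.58.1 in R 4.3.3 (lmFit, eBayes, two-sided, Benjamini-Hochberg, threshold 0.05), per tissue for genotype (6 arrays) and per genotype for tissue (12 arrays). The fit was tested on simulated data. An "at least" fold sets each undetected value to the lowest well-above-background level of its array, or its own if higher. The number of arrays limits the precision, and an exact permutation test of 3 against 3 cannot go below 0.10. Groups came from the labels, and slides from the file headers.

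The 10 genes and all gene lists were chosen with earlier results of these data known, and the relations to marker lists after the levels had been seen. One listed marker is not reported here and was left out of its list mean for that reason, after the values had been seen. Genotype statistics were given for those whose groups did not overlap and the pair with the smallest p. Up to 2 other calcium genes per group and direction were named by the size of WT heart minus muscle. Alternatives covered background correction, normalization, filter, probe choice, slide and mouse as blocks, arrays in the fit and each array left out. Same-mouse deviations over 11620 genes had a mean correlation of 0.02 between tissues, against -0.01 for different mice of a genotype. The pairing comes from the animal numbers in the labels.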

Additional observations from a re-analysis of the deposited data

How the results depend on the processing

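Of 1296 alternative values, 1257 left direction and call as they were (counts within 1.5 times), and 7 single-gene values changed sign. With the slide as a block, WT heart minus muscle called 5596 genes in place of 8676, WT muscle minus liver 6892 in place of 11694 and KI heart minus muscle 3049 in place of 7443, and WT heart minus liver of Ryr1 was 0.31. Quantile normalization gave 1 gene for the genotype effect differing between tissues, and 1 fit of all 24 arrays gave 3 genes in liver between genotypes. The other Atp2a2 probe gave -0.77 for WT muscle minus liver. The causes were not tested. Leaving out 1 array each gave 0 to 1 genes for the effect differing between tissues, 0 to 1 in heart (1 without KI mouse C) and 0 to 4 in muscle (4 without KI mouse A) between genotypes. It gave -0.40 to 0.090 for Ryr1 in WT heart minus liver, -4.16 to 1.23 for Sln in KI heart minus muscle, -2.95 to 3.13 for Sln in WT heart minus brain and -0.34 to 0.13 for Atp2a1 between genotypes in muscle. With the mouse as a replicate block, WT heart minus muscle called 8424 genes, and in the tissue comparisons the block changed no call of the 10 genes and moved no count by over 1.5 times. It cannot be used per tissue between genotypes, where each mouse gives 1 array. Under quantile normalization and normexp the median of all genes in WT heart minus muscle was 0.11 and -0.11, against 0.00 here. With 3 mice per group, differences of 1 (log2) were recovered only in part in simulated data: 43 of 100 in heart and 25 of 100 in muscle. The simulated noise was normal and independent between genes, which real arrays need not be, so these rates may not hold for the measured data.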

Other observations

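The dimmer Cacna1c probe was not well above background in 5 of the 6 muscles, between -6.68 and -5.05, but read -0.16 in that of WT mouse E. The probe used for Cacna1c read -0.39 in the same muscle, the lowest of the 6. The value is given as measured.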
